A study of Rattus norvegicus with 30 samples.

Results

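Transcripts of the nuclear-encoded subunits of the oxidative phosphorylation complexes were followed in cultured rat hepatocytes given acetaminophen, an analgesic that injures the liver in overdose through a reactive metabolite that binds glutathione and mitochondrial proteins. All genes whose annotated symbol began with Nduf, Sdha, Sdhb, Sdhc, Sdhd, Uqcr, Cyc1, Cox4i, Cox5, Cox6, Cox7, Cox8 or Atp5 were taken, each represented by its brightest probe set. Left out were 7 probe sets that carry several symbols, among them those of Atp5mc1, Atp5mc2, Cox7a2, Ndufa10, Ndufs5 and Uqcrb. The rule gave 91 of the 14217 genes named on the array. Of these, 34 encode subunits of complex I, 4 of complex II, 8 of complex III, 15 of complex IV and 15 of complex V. The remaining 15 are described as other members: 10 assembly factors (the Ndufaf and Sdhaf genes), the ATP synthase inhibitor Atp5if1, Ndufa4 and its paralog Ndufa4l2, the supercomplex factor Cox7a2l and the annotated copy Cox6c-ps1. 85 members were among the 8531 genes bright enough to be tested.

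The cells were purchased frozen hepatocytes of male Sprague Dawley rats, dosed on day 3 of culture and harvested after 24 or 48 h. The groups were vehicle (1% DMSO), 500 µM and 5000 µM acetaminophen at 24 h and the same at 48 h, with 5 wells and 5 single-colour Affymetrix arrays in each of the 6 groups. The labels describe the wells as independent cultures and tie none of them to an animal, and p-values thus cover well-to-well spread only. Values are linear MAS5 signals, changes are differences of group means of log2 signals with their standard errors (SE), and a gene was called at a limma adjusted p below 0.05 over all 8531 genes. Since these are bulk RNA samples, fewer cells of a type and less RNA per cell cannot be told apart.

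Oxidative phosphorylation couples the oxidation of NADH and succinate to ATP synthesis in the inner mitochondrial membrane. Complex I (NADH dehydrogenase) and complex II (succinate dehydrogenase) pass electrons to ubiquinone, complex III (cytochrome bc1) passes them to cytochrome c, complex IV (cytochrome c oxidase) reduces oxygen, and complex V (ATP synthase) makes ATP from the proton gradient. Except for complex II, each complex joins subunits encoded in the mitochondrial genome with nuclear-encoded ones, and hepatocytes are rich in both. Many nuclear genes of this pathway are known to be bound by NRF1, by the ETS factor GABP, by YY1 and by ERR-alpha.

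RefSeq promoters on the GRCr8 build, from 250 bases before to 50 after a gene's start, were at hand for 82 members. They were searched on both strands for the NRF1 core GCGCATGC, the ETS core CCGGAAG, the YY1 core AAGATGGC and the ERR site TCAAGGTCA. The NRF1 core was found in 9 of 82 member promoters (11%) and in 5.54% of the promoters of 7221 tested genes. The ETS core was found in 25 (30.5%) and in 20.4% of the tested genes. The YY1 core was found in 17 (20.7%) and in 6.41%, and the ERR site in 2 (2.44%) and in 0.194%. At least 1 of the 4 motifs was found in 40 member promoters (48.8%) and in 29.3% of those of the tested genes. A match is a description of the letters and not evidence of binding. Of the 13 members called in the same direction at 5000 µM at both times, 7 had a match, and 4 of these promoters are shown because they carry the range seen. Ndufa6 and Sdhaf3 were higher and Sdhb and Ndufa4l2 were lower at 5000 µM. They are written 5′ to 3′ on the strand of the gene, with the matches in capitals:
Ndufa6 (chr7:115750268-115750567, minus strand): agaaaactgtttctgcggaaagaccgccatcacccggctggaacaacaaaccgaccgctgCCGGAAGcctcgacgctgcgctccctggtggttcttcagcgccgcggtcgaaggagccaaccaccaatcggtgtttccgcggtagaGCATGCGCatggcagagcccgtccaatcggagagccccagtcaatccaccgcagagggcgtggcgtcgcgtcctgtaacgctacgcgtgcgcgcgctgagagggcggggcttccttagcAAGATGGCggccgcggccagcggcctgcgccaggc
Sdhaf3 (chr4:36066713-36067012, plus strand): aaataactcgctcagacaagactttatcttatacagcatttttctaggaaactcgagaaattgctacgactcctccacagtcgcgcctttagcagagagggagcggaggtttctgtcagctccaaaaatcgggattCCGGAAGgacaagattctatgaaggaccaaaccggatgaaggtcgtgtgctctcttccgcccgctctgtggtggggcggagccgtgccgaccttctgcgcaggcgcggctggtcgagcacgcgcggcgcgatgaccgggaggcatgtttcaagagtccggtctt
Sdhb (chr5:158547684-158547983, plus strand): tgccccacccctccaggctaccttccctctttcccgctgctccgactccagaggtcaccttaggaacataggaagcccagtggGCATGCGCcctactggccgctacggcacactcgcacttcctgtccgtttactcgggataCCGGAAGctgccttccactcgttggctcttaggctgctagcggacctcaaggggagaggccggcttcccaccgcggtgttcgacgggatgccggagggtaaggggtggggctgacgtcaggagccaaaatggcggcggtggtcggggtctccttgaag
Ndufa4l2 (chr7:65241919-65242218, plus strand): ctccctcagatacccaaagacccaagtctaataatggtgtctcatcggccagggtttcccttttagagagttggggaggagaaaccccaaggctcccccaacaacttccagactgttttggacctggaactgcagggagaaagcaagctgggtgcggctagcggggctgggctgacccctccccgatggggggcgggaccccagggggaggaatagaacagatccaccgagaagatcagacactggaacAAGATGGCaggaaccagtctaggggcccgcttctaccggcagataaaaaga
In Ndufa6 the ETS core, the reverse of the NRF1 core and the YY1 core follow each other. They begin 190 and 104 bases before the start and just past it. Sdhb carries the reverse NRF1 core 167 bases and the ETS core 108 bases before the start. Sdhaf3 has the ETS core 114 bases before the start, and Ndufa4l2 has the YY1 core at the start. Both an increased and a decreased member therefore hold the NRF1 and ETS cores. Of the 8 members higher at both times, 4 held the ETS core and 1 the NRF1 core, and of the 5 lower at both times, 1 held the ETS core and 2 the NRF1 core.

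Before the comparisons, the condition of the RNA has to be given, because it differed between groups. The actin ratio used here is the log2 signal of the 3′ control probe set of beta-actin less that of its 5′ one, and it is higher where labelled RNA lacks its 5′ end. At 24 h the ratio averaged 1.78 ± 0.24 in vehicle wells, 1.61 ± 0.33 with 500 µM and 1.37 ± 0.22 with 5000 µM (SD, n = 5 each). Its means at 48 h were 1.24 ± 0.11 in vehicle wells, 1.86 ± 0.12 with 500 µM and 1.21 ± 0.051 with 5000 µM. All 5 arrays of 500 µM at 48 h lay above the largest gap in the ratio, between 1.54 and 1.74, and none of the other 10 arrays at 48 h did. At 24 h, 3 vehicle arrays, 3 of 500 µM and 1 of 5000 µM lay above it. Of the comparisons with vehicle, that of 5000 µM at 48 h had all arrays of both groups on one side of the gap. Of the hepatocyte marker list, 9 of 10 genes were named on the array and all 9 were tested, with a summed signal of 335420 to 446998 at 5000 µM and 48 h and of 354452 to 428430 in vehicle at that time. Of 9 named Kupffer cell and leukocyte markers 3 were tested, with sums over the 9 of 19916 to 22766 at 5000 µM and 24 h and of 23050 to 30559 in vehicle at that time. At 48 h these sums were 21130 to 23199 at 5000 µM and 24567 to 28765 in vehicle, again without overlap. Of 7 named cholangiocyte markers 1 was tested. Their sums at 48 h were 11318 to 11940 at 500 µM and 12253 to 13425 at 5000 µM, both below the 13588 to 14818 of vehicle, which at 24 h had 9704 to 9957. The part of these markers in the results below was not tested.

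The array-wise mean of log2 signal over the 85 members was lowest at 500 µM and 48 h. At 48 h it averaged 13.78 ± 0.038 at 500 µM and 13.95 ± 0.043 at 5000 µM, against 13.95 ± 0.041 in vehicle (SD, n = 5 each). At 24 h it averaged 13.88 ± 0.044 at 500 µM and 13.82 ± 0.058 at 5000 µM, against 13.81 ± 0.066 in vehicle. The difference from vehicle was larger than the spread of the arrays at 500 µM and 48 h.

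**Figure D1:**
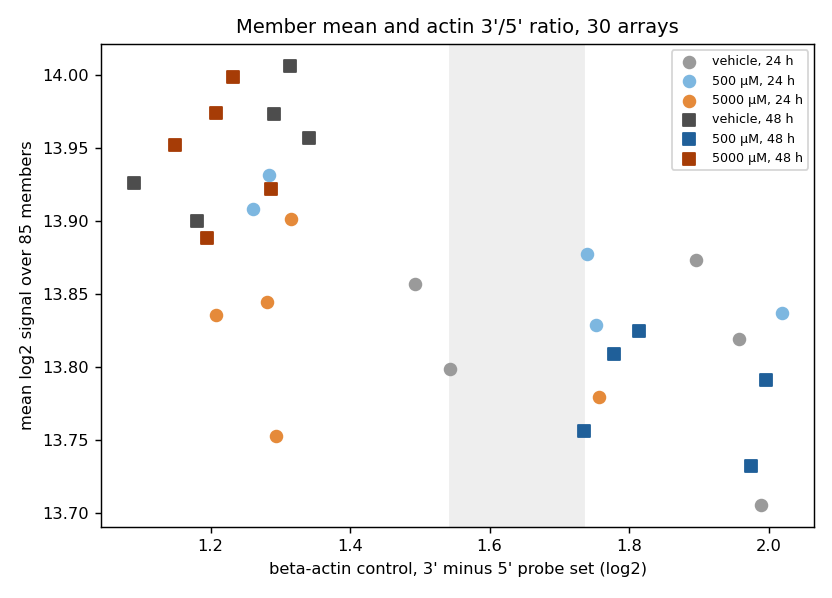
Mean log2 signal over the 85 tested members (vertical) against the log2 3′/5′ ratio of the beta-actin control (horizontal) in each of 30 arrays, circles for 24 h and squares for 48 h; the grey band is the largest gap in the ratio. The 5 arrays of 500 µM at 48 h lie right of the gap and below all vehicle and 5000 µM arrays of 48 h, which lie left of it.

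At 5000 µM the members did not move together. At 24 h, 14 of 85 were higher (16.5%, against 18.6% of all genes tested) and 14 were lower (16.5%, against 19.6%), with a median change of 0.008 on the log2 scale, and of -0.003 over all genes tested. At 48 h, 9 were higher (10.6%, against 14.6%) and 10 lower (11.8%, against 18%), with a median of 0.014, and of -0.011 over all genes. The share of called members was thus near or under that of genes at large, and the content lies in which members moved. At 24 h the split between directions changed with median-centred arrays, which gave 3 higher and 11 lower, against 809 and 1745 of all genes. Quantile normalization gave 17 higher and 16 lower, against 1662 and 1801. At 48 h centred arrays gave 4 higher and 4 lower, against 831 and 1036 of all genes. Without the third 5000 µM array of 48 h, 12 members were called in place of 19. The summed signal of the Kupffer cell and leukocyte markers, of which 3 of 9 were bright enough to be tested, was lower at 5000 µM at both times.

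**Figure D2:**
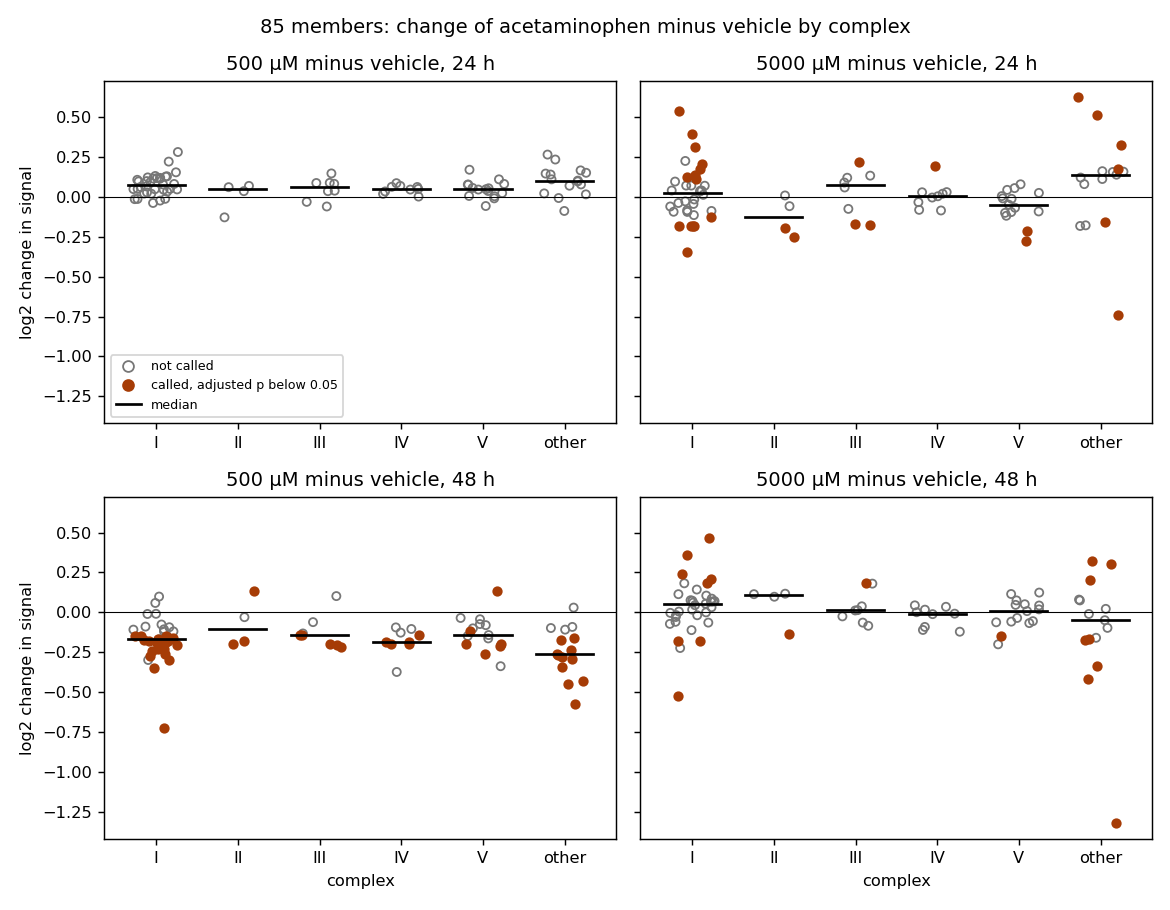
Log2 change of each tested member at 500 µM (left) and 5000 µM (right) relative to vehicle, at 24 h (top) and 48 h (bottom), by complex; filled points were called at an adjusted p below 0.05 and black lines are medians. At 5000 µM called members lie on both sides of 0, and at 500 µM and 48 h 48 of the 50 called members lie below it.

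Of the members called at 5000 µM, 13 were called in the same direction at both times, which is 46.4% of the 28 called at 24 h and 68.4% of the 19 called at 48 h. Over all genes, 1467 were called in the same direction at both times, or 45.1% and 52.8% of the calls. The vehicle wells of the 24 h and 48 h comparisons were different wells. The 8 that were higher were Ndufa6, Ndufab1, Ndufb10, Ndufc2 and Ndufv3 of complex I, Uqcrh of complex III and the complex II assembly factors Sdhaf1 and Sdhaf3. The 5 that were lower were Ndufa11, Ndufs3, Sdhb, Ndufa4l2 and Ndufaf3. With the actin ratio as a covariate, 9 of the 13 were still called at both times, and Ndufa6, Ndufab1, Ndufc2 and Ndufa11 were called only at 48 h.

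Ndufb10, an accessory subunit in the membrane arm of complex I, had the largest rise of a complex I subunit at 48 h. At 24 h its signals were 16029, 16470, 17033, 17399 and 18427 at 5000 µM, against 11524, 12752, 13078, 13695 and 14005 in vehicle. At 48 h they were 18264, 18680, 19161, 19473 and 20117 at 5000 µM, against 13057, 13645, 14110, 14150 and 14337 in vehicle. The groups did not overlap at either time, and the rise was 0.39 ± 0.051 at 24 h (adjusted p = 2.79e-07) and 0.47 ± 0.051 at 48 h (adjusted p = 1.46e-08), or 1.31-fold and 1.38-fold. In the fit with the actin ratio it was 0.32 and 0.46.

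Ndufv3, an accessory subunit of the NADH-oxidising module, also rose at both times. Its 24 h signals were 6525, 7468, 7668, 8206 and 8224 at 5000 µM, against 5699, 6029, 6275, 6289 and 6353 in vehicle. Its 48 h signals were 8556, 8670, 8771, 9182 and 9433 at 5000 µM, against 6196, 6692, 6764, 7492 and 7690 in vehicle. The groups were again apart, with changes of 0.31 ± 0.064 (adjusted p = 0.000226) and 0.36 ± 0.064 (adjusted p = 3.84e-05). A second, dimmer probe set of Ndufv3 gave 0.34 at 24 h and only 0.084 at 48 h, where it was not called, so the 48 h rise rests on 1 of its 2 probe sets.

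Ndufa6 carries the LYR motif that binds the mitochondrial acyl carrier protein, and Ndufab1 is that carrier protein. Ndufa6 had 26800, 27298, 27434, 28089 and 28184 at 5000 µM and 48 h, against 21965, 22976, 23193, 24020 and 24698 in vehicle, groups that did not overlap (0.24 ± 0.044, adjusted p = 6.44e-05). Ndufab1 had 16677 to 19878 at 5000 µM and 48 h, against 15381 to 16052 in vehicle (0.19 ± 0.051, adjusted p = 0.00483). At 24 h the rises of Ndufa6 and Ndufab1 were 0.11 ± 0.044 and 0.14 ± 0.051. Ndufc2, another membrane-arm subunit, rose by 0.12 ± 0.044 at 24 h and 0.21 ± 0.044 at 48 h. These 3 rises at 24 h were not called with the actin ratio as a covariate (adjusted p of 0.284, 0.164 and 0.218).

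The falls in complex I at 24 h lay largely in the core subunits of its peripheral arm, which are conserved from bacteria and hold the flavin and the iron-sulfur clusters between them. Of 6 such subunits tested, Ndufs1, Ndufs3, Ndufs7 and Ndufv1 were lower, none was higher, and the median change was -0.16. Of the 28 accessory subunits, 8 were higher and 2 (Ndufa9 and Ndufa11) were lower, with a median of 0.039. Of all genes tested, 18.6% were higher and 19.6% lower in this comparison. The grouping by role was chosen with the values known, so no test is given for it. With the actin ratio as a covariate, 4 of the 6 core subunits were lower (Ndufs3, Ndufs7, Ndufv1 and Ndufv2), and 3 accessory subunits were higher and 1 lower, against 15.8% of all genes higher and 14.7% lower. At 48 h, 1 of the 6 core subunits was lower, and 5 accessory subunits were higher and 2 lower, against 14.6% of all genes higher and 18% lower.

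Ndufs3, a core subunit of the peripheral arm, had the largest fall of complex I at 24 h. Its signals were 7841, 8125, 8862, 9022 and 9359 at 5000 µM, against 8986, 10675, 11536, 11806 and 12142 in vehicle. The lowest vehicle array lay within the range of the treated arrays, and the change was -0.35 ± 0.069 (adjusted p = 0.000157). At 48 h it had 10639, 11352, 11477, 12236 and 12544 at 5000 µM, against 12484, 12745, 12844, 13992 and 14000 in vehicle (-0.18 ± 0.069, adjusted p = 0.0418). Adding the actin ratio to the fit gave -0.46 and -0.19.

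Ndufv1, the flavoprotein that receives electrons from NADH, had 9181, 9473, 9614, 9742 and 9799 at 5000 µM and 24 h, against 10358, 10370, 10456, 11456 and 11782 in vehicle, with no overlap (-0.19 ± 0.051, adjusted p = 0.00405). Ndufs7, which carries the last iron-sulfur cluster before ubiquinone, had 11106 to 12095 at 5000 µM, against 12134 to 13763 in vehicle (-0.18 ± 0.049, adjusted p = 0.0031). Ndufs1 had 7709, 8385, 8648, 8685 and 8749 at 5000 µM, against 8368, 8857, 9389, 9664 and 9829 in vehicle. These groups overlapped (-0.13 ± 0.048, adjusted p = 0.0351). At 48 h Ndufv1, Ndufs7 and Ndufs1 were not called, with changes of 0.068, -0.029 and -0.003.

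Ndufa9, an accessory subunit beside the ubiquinone site, had 8782, 9135, 9311, 9789 and 9896 at 5000 µM and 24 h, against 9793, 10662, 10744, 10760 and 11332 in vehicle (-0.18 ± 0.048, adjusted p = 0.00262). With the mean of its 2 probe sets, of which the second is dim, the change was 0.062. Ndufa11, a membrane-arm subunit, fell by 0.19 ± 0.067 at 24 h and by 0.18 ± 0.067 at 48 h. Ndufa1 and Ndufa8 rose at 24 h, by 0.20 ± 0.051 and 0.17 ± 0.061, and were not called at 48 h.

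Ndufb8, a membrane-arm subunit, was the least steady member of complex I. At 24 h it had 1823, 3444, 3896, 4352 and 4519 at 5000 µM, against 2060, 2142, 2330, 2393 and 3046 in vehicle. At 48 h it had 1757, 2006, 2395, 2659 and 2704 at 5000 µM, against 2963, 3012, 3225, 3328 and 3911 in vehicle. It was higher at 24 h, with 1 treated array below all vehicle arrays (0.54 ± 0.183, adjusted p = 0.0196), and lower at 48 h without overlap (-0.53 ± 0.183, adjusted p = 0.0258). Adding the actin ratio to the fit gave 0.18 at 24 h, which was not called (adjusted p = 0.51), and -0.55 at 48 h.

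**Figure D3:**
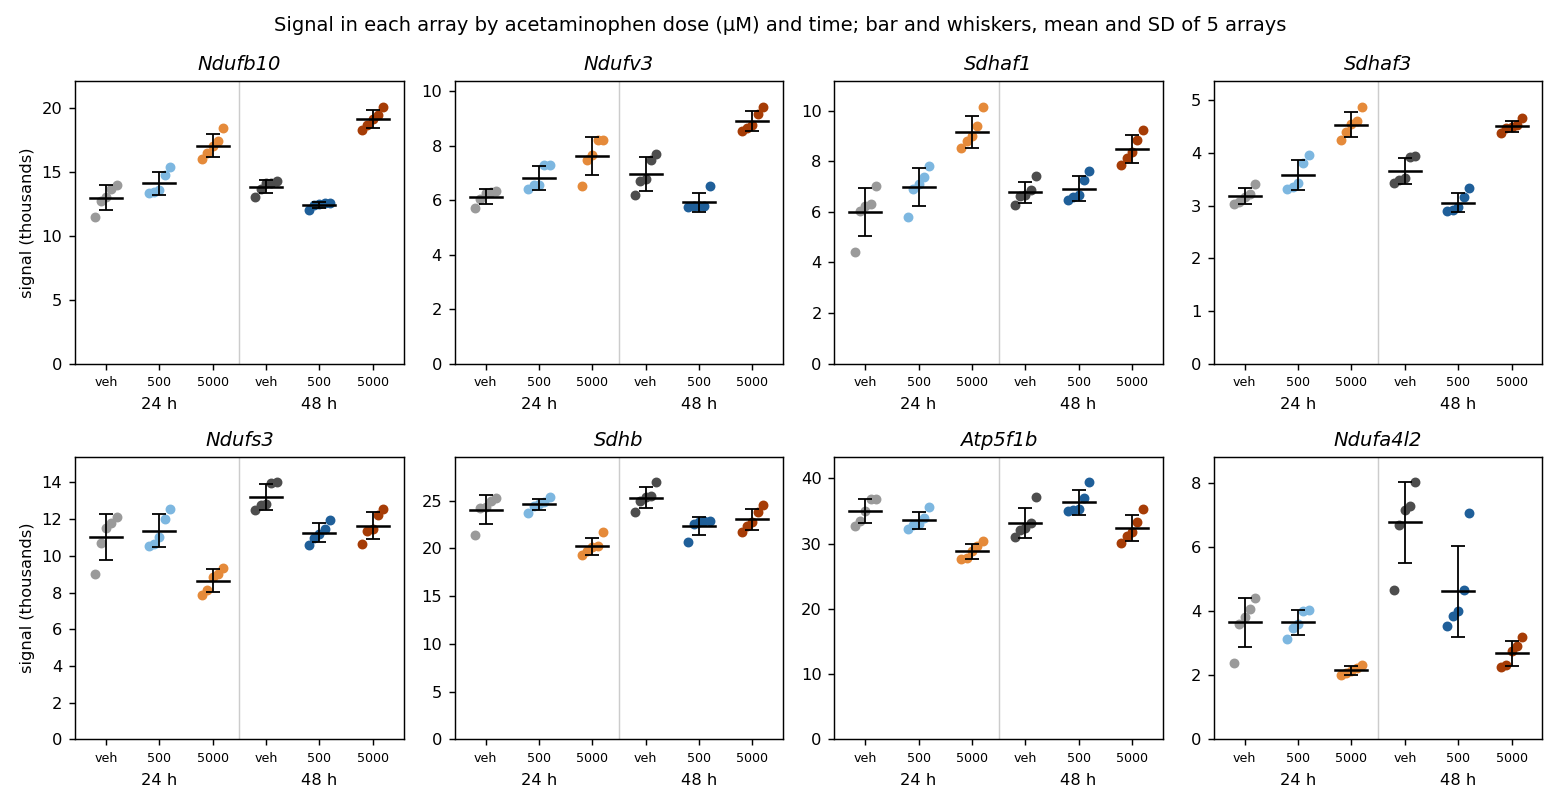
Signal in each array of 8 members (scale as labelled) by acetaminophen dose and time, with the mean and SD of the 5 arrays of a group as bar and whiskers; axes start at 0. Ndufb10, Ndufv3, Sdhaf1 and Sdhaf3 are higher at 5000 µM than in vehicle at both times without overlap, Ndufs3 and Sdhb are lower, Atp5f1b is lower at 24 h, and Ndufa4l2 is lower at both times.

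In complex II the catalytic subunits were lower at 24 h, and 2 of the genes that help to assemble them were higher. Among all genes tested 18.6% were higher and 19.6% lower at that time. Sdhb, the iron-sulfur subunit, had 19343, 19679, 20139, 20224 and 21712 at 5000 µM and 24 h, against 21436, 24280, 24375, 24914 and 25248 in vehicle. The change was -0.25 ± 0.048 (adjusted p = 9.54e-05), and at 48 h -0.14 ± 0.048 (adjusted p = 0.0291). Sdha, the flavoprotein, had 10662, 10880, 11025, 11586 and 11668 at 5000 µM and 24 h, against 12139, 12271, 12703, 13272 and 13551 in vehicle, groups apart (-0.20 ± 0.054, adjusted p = 0.00442). Its adjusted p was 0.0525 with the actin ratio in the fit. At 48 h Sdha had 12089 to 13280 at 5000 µM, against 10575 to 12683 in vehicle, a difference that was not called.

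Sdhaf1 and Sdhaf3 protect and complete the iron-sulfur subunit Sdhb during assembly. Sdhaf1 had 8517, 8780, 9012, 9379 and 10150 at 5000 µM and 24 h, against 4409, 6031, 6234, 6296 and 7000 in vehicle. Its 48 h signals were 7842, 8111, 8354, 8827 and 9249 at 5000 µM, against 6274, 6642, 6665, 6874 and 7400 in vehicle. Its rise was the largest of any member at 24 h, 0.63 ± 0.087 (adjusted p = 7.24e-07), and was 0.32 ± 0.087 at 48 h (adjusted p = 0.00403).

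Sdhaf3 had 4245, 4400, 4551, 4603 and 4878 at 5000 µM and 24 h, against 3041, 3074, 3173, 3220 and 3413 in vehicle. Its signals at 48 h were 4377, 4482, 4494, 4532 and 4664 at 5000 µM, against 3427, 3486, 3518, 3931 and 3939 in vehicle. Groups were apart at both times, with rises of 0.51 ± 0.06 (adjusted p = 4.11e-08) and 0.30 ± 0.06 (adjusted p = 0.000164). In the fit with the actin ratio the rises of Sdhaf1 were 0.50 and 0.31 and those of Sdhaf3 were 0.49 and 0.30. Sdhaf2, which attaches the flavin to Sdha, rose at 48 h by 0.20 ± 0.062, and Sdhaf4 was not called at either time.

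In complex III the changes at 5000 µM were small and of both signs. Cyc1, which encodes cytochrome c1, had 14623, 14668, 14796, 16179 and 16270 at 5000 µM and 24 h, against 15576, 17239, 17344, 18053 and 18380 in vehicle (-0.18 ± 0.048, adjusted p = 0.00365). Uqcrc1, a core protein, had 16708, 16980, 17670, 18316 and 18428 at 5000 µM, against 18249, 18709, 20374, 20464 and 21502 in vehicle (-0.17 ± 0.048, adjusted p = 0.00519). Uqcrh, the hinge protein beside cytochrome c1, was higher by 0.22 ± 0.068 at 24 h and 0.19 ± 0.068 at 48 h, with overlapping groups. Uqcrfs1, the Rieske iron-sulfur protein, was not called, with 26204 to 31166 at 5000 µM and 24 h, against 22502 to 30530 in vehicle. Neither Cyc1 nor Uqcrc1 was called at 48 h.

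Of the 9 tested subunits of complex IV only Cox6a1, the isoform of liver and most other tissues, was called at 24 h. At 48 h 0 were called, and 1 had an unadjusted p below 0.05. Among all genes tested 18.6% were higher and 19.6% lower at 24 h, and 14.6% and 18% at 48 h. Cox6a1 had 34234, 36238, 39006, 39183 and 40478 at 5000 µM and 24 h, against 29267, 32942, 33573, 33890 and 35605 in vehicle (0.20 ± 0.06, adjusted p = 0.0104, and 0.14 with adjusted p = 0.135 with the actin ratio as a covariate). Cox4i1, a nuclear-encoded subunit of the complex, had 41787, 43084, 43542, 45216 and 49475 at 5000 µM and 24 h, against 41939, 42030, 42369, 43385 and 50617 in vehicle. The Cox6c signals were 39483 to 41848 at 5000 µM and 35590 to 44414 in vehicle, and those of Cox8a were 33668 to 37284 at 5000 µM and 33230 to 38920 in vehicle. All changes of the 9 subunits lay between -0.086 and 0.20 at 24 h and between -0.12 and 0.044 at 48 h. Cox5a was read from a dim probe set, because its bright one is shared with another annotated gene.

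The isoforms of complex IV that mark other tissues had means over all 30 arrays below the 469 floor for testing. These were Cox6a2, Cox7a1 and Cox8b of heart and skeletal muscle, Cox4i2 of lung, and Cox6b2 and Cox7b2 of testis. Cox8b read 7 to 14 at 5000 µM and 24 h, against 9 to 22 in vehicle. Cox4i2 read 153 to 248 at 5000 µM and 26 to 197 in vehicle at 24 h. Cox7a1 read 297 to 495 at 5000 µM and 303 to 482 in vehicle at 24 h, with some arrays above the floor. At these signals the probe sets give no level that can be compared, and no test was made.

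In complex V 2 of 15 tested subunits were called at 24 h, both lower and in different parts of the enzyme. Among all genes tested 19.6% were lower at 24 h and 18% at 48 h. Atp5f1b, the catalytic beta subunit, had 27644, 27833, 28835, 29599 and 30356 at 5000 µM, against 32726, 33503, 34918, 36752 and 36814 in vehicle, groups apart (-0.28 ± 0.052, adjusted p = 7.49e-05). After 48 h its signals were 30089, 31233, 31843, 33243 and 35294 at 5000 µM, against 31030, 32034, 32377, 33170 and 37138 in vehicle, and the gene was not called. Atp5po, a peripheral stalk subunit, fell by 0.21 ± 0.064 at 24 h. Atp5f1a, the other large subunit of the catalytic head, had 24490, 24647, 24692, 24898 and 26057 at 5000 µM, against 20950, 23685, 24163, 24841 and 26929 in vehicle, and was not called. Atp5f1e, the epsilon subunit, was the only member of complex V called at 48 h (-0.15 ± 0.048, adjusted p = 0.0172). A bright probe set shared by Atp5mc1 and Atp5mc1l1, and so not a member, was lower at both times. It changed by -0.327 ± 0.06 at 24 h and -0.328 ± 0.06 at 48 h. The limma adjusted p over all 31042 probe sets was 0.000159 and 0.000191.

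Atp5if1 encodes the inhibitor that stops ATP synthase from running backwards. It had 14502, 14980, 16018, 17053 and 18999 at 5000 µM and 24 h, against 13154, 14027, 14396, 14995 and 15475 in vehicle (0.17 ± 0.063, adjusted p = 0.028). At 48 h it had 14563, 14793, 15349, 15486 and 16805 at 5000 µM, against 16616, 17243, 17244, 17520 and 17904 in vehicle (-0.17 ± 0.063, adjusted p = 0.0373). It was therefore called in opposite directions at the 2 times, like Ndufb8, and the 24 h rise was not called with the actin ratio as a covariate. The dimmer probe sets of Atp5if1 gave 0.003 and -0.02 at 24 h and -0.008 and -0.288 at 48 h, none of them called. The opposite calls thus rest on the brightest of its 3 probe sets.

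Ndufa4l2 had the largest change of any tested member at 5000 µM at either time. It is a paralog of Ndufa4 that, in human and mouse cells, is induced by hypoxia and lowers complex I activity. Its signals were 1992, 2083, 2125, 2220 and 2318 at 5000 µM and 24 h, against 2385, 3606, 3819, 4052 and 4393 in vehicle. At 48 h they were 2256, 2331, 2768, 2901 and 3179 at 5000 µM, against 4664, 6696, 7149, 7277 and 8007 in vehicle. All treated arrays lay below all vehicle arrays at both times, and the gene changed by -40% at 24 h (-0.74 ± 0.154, adjusted p = 0.000268) and by -59.9% at 48 h (-1.32 ± 0.154, adjusted p = 4.14e-08). In the fit with the actin ratio the changes were -0.67 and -1.32.

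In vehicle wells Ndufa4l2 was itself higher at 48 h than at 24 h, by 0.90 ± 0.154 (adjusted p = 7.05e-05). The effects of 5000 µM at the 2 times differed by -0.58, which was not called (adjusted p = 0.0635). Ndufa4, which in human cells is described as a subunit of complex IV, had 28019 to 34362 at 5000 µM and 24 h, against 26271 to 31915 in vehicle, and was not called at either time.

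Among the complex I assembly factors, Ndufaf7 rose at 24 h by 0.33 ± 0.083 (adjusted p = 0.0022), and Ndufaf3 fell by 0.16 ± 0.059 at both times. Ndufaf4 had 9222, 9279, 9793, 9852 and 10166 at 5000 µM and 48 h, against 11338, 11994, 13041, 14117 and 14262 in vehicle, groups apart (-0.42 ± 0.094, adjusted p = 0.000755). Ndufaf1 fell by 0.33 ± 0.105 at 48 h. The other assembly factors tested, 35 genes outside the member set, were called higher in 9 and lower in 4 at 24 h (against 18.6% and 19.6% of all genes), and higher in 7 and lower in 3 at 48 h (against 14.6% and 18%). Ttc19, a complex III factor, rose by 0.70 ± 0.058 and 0.66 ± 0.058, and Cox14, a complex IV factor, by 0.68 ± 0.082 and 0.56 ± 0.082 (24 and 48 h). Lrpprc, which stabilises mitochondrial messenger RNA, was lower at 24 h (-0.46 ± 0.082) and not called at 48 h (-0.02).

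The other lists give the surroundings of the chain, and their counts at 5000 µM stand against 18.6% of all genes higher and 19.6% lower at 24 h, and 14.6% and 18% at 48 h. Of 17 electron carriers and other entry points, 5 were higher and 2 lower at 24 h, among them Gpd2, the mitochondrial glycerol phosphate dehydrogenase, at 0.47 ± 0.109, and Chdh, choline dehydrogenase, at -1.04 ± 0.087. Of 15 genes of the citric acid cycle and pyruvate dehydrogenase, none was higher and 5 were lower at 24 h (Idh3b, Dlst, Pdha1, Pdhb and Pc), and at 48 h 2 were higher and 2 lower. Of 20 regulators of mitochondrial biogenesis, 3 were higher and 5 lower at 24 h, and 5 and 4 at 48 h. Pprc1, a coactivator of the PGC-1 family, was lower at both times, with changes of -0.60 and -0.45. Of 15 inner membrane carriers and uncoupling genes, 3 were higher and 2 lower at 24 h, and 5 and 0 at 48 h. The mitochondrially encoded COX1 and COX2, the only such genes tested, were not called in any comparison with vehicle.

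At 500 µM no member was called at 24 h, against 2.86% of all genes tested. Of the 85 members 73 had a change above 0, the median was 0.061, and 13 had an unadjusted p below 0.05. Over all genes the median was -0.024. The largest of those 13 changes was that of Sdhaf1, with 5811, 6885, 7098, 7379 and 7813 at 500 µM, against 4409, 6031, 6234, 6296 and 7000 in vehicle (0.23 ± 0.087, adjusted p = 0.136). Ndufv3 was the one member whose arrays lay all above those of vehicle, with 6406 to 7290 at 500 µM, against 5699 to 6353 in vehicle (0.15 ± 0.064, adjusted p = 0.189), and 2.32% of all genes showed such a separation upwards. Among arrays below the gap in the actin ratio, 2 against 2, the median change was 0.097, and above it, 3 against 3, it was 0.037, with no call in either.

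At 500 µM and 48 h the members were lower almost throughout, in the group whose actin ratio stood apart from its vehicle. Of 85 members, 48 were lower (56.5%, against 18.6% of all genes tested) and 2 were higher (2.35%, against 24%). The median change was -0.16, a difference of -10.7%, while that over all genes was 0.014, and 6 of the 85 changes were above 0. In 33 members all 5 arrays at 500 µM lay below all 5 of vehicle, as was the case for 11.3% of all genes. By complex, 20 of 34 subunits of complex I were lower, 2 of 4 of complex II, 5 of 8 of complex III, 5 of 9 of complex IV and 5 of 15 of complex V, with 11 of the 15 other members.

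Both counts were smaller with the actin ratio in the fit or with arrays centred on their medians. Quantile normalization gave 4 higher and 40 lower members, against 1880 and 1703 of all genes. With the actin ratio as a covariate 2 members were lower, Ndufb1 and Atp5if1, while 1.49% of all genes were called lower, and the median change was -0.11. With arrays centred on their medians 1 was higher and 4 were lower, a scaling that put the median of all genes tested at 0.10 and called 2324 of the 8531 genes higher and 432 lower. The called-lower share of members was then close to that of all genes. The median change of the members was -0.075 in this scaling, below the 0.10 of all genes. The cholangiocyte marker sums, over 7 genes of which 1 was bright enough to be tested, were also lower at 500 µM in these arrays, without overlap. No arrays of 500 µM and of vehicle at 48 h lay on the same side of the gap in the ratio, so the dose and the ratio cannot be told apart within a side.

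**Figure D4:**
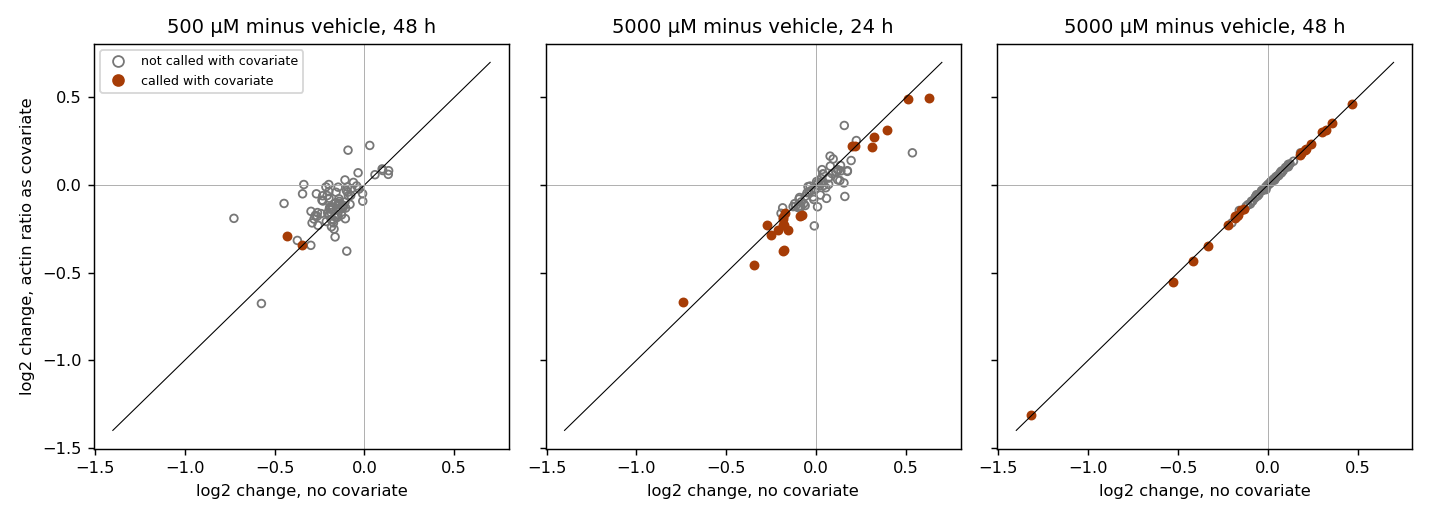
Log2 change of the 85 members without (horizontal) and with (vertical) the actin 3′/5′ ratio as a covariate, at 500 µM and 48 h (left) and at 5000 µM and 24 h (middle) and 48 h (right) relative to vehicle; filled points were called with the covariate and the diagonal marks equal values. 2 members are called with the covariate at 500 µM and 48 h, and the points of 5000 µM at 48 h lie near the diagonal.

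The 2 members called with the covariate had these signals. Ndufb1, a membrane-arm subunit of complex I, had 12731, 12827, 13444, 14721 and 14932 at 500 µM and 48 h, against 16372, 16526, 17036, 18051 and 19261 in vehicle, groups apart (-0.35 ± 0.069, adjusted p = 0.000228, and -0.34 with adjusted p = 0.041 with the covariate). Atp5if1 had 11474, 12632, 12719, 13443 and 14011 at 500 µM, against 16616, 17243, 17244, 17520 and 17904 in vehicle, groups apart (-0.43 ± 0.063, adjusted p = 5.63e-06, and -0.29 with adjusted p = 0.0375). By its brightest probe set the inhibitor of ATP synthase was thus lower at 48 h at both doses. Its dimmer probe sets were not called at either dose, with -0.535 and -0.395 at 500 µM and -0.008 and -0.288 at 5000 µM.

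The other members lower at 500 µM and 48 h were not called with the covariate, and their changes in that fit ranged widely. Ndufb8 had 1808, 1892, 2039, 2053 and 2115 at 500 µM, against 2963, 3012, 3225, 3328 and 3911 in vehicle (-0.73 ± 0.183, and -0.19 with the covariate). Sdhd, a membrane anchor of complex II, had 20548, 23477, 23919, 24256 and 24503 at 500 µM, against 26159, 26294, 26597, 26996 and 27600 in vehicle (-0.20 ± 0.057, and 0.003 with the covariate). Uqcrfs1 had 23427, 26557, 27801, 27892 and 28949 at 500 µM, against 29100, 30413, 31017, 32238 and 33117 in vehicle (-0.21 ± 0.069, and -0.011 with the covariate). For Sdhd and Uqcrfs1 the change was thus at or near 0 once the ratio was in the fit.

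Elsewhere in the chain, the next called fall of complex III was that of Uqcrc2, a core protein, at -0.21 ± 0.056. In complex IV the largest called falls were those of Cox6b1 (-0.20 ± 0.053) and Cox5b (-0.20 ± 0.059), and in complex V those of Atp5mg (-0.26 ± 0.065) and Atp5pd (-0.21 ± 0.049). Cox4i1 had 40291, 41951, 42779, 42787 and 45068 at 500 µM, against 45498, 46635, 46642, 47753 and 48567 in vehicle (-0.14 ± 0.052, adjusted p = 0.0259). Cox6c had 32900 to 43420 at 500 µM, against 40855 to 47267 in vehicle (-0.19 ± 0.063, adjusted p = 0.019). Sdhb had 20686, 22571, 22786, 22829 and 22867 at 500 µM, against 23813, 24970, 25341, 25451 and 26908 in vehicle (-0.18 ± 0.048, adjusted p = 0.00352). None of these members was called with the covariate.

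Among other members, Ndufa4l2 had 3544, 3830, 4005, 4661 and 7048 at 500 µM and 48 h, against 4664, 6696, 7149, 7277 and 8007 in vehicle. The groups overlapped, and the change was -0.57 ± 0.154 (adjusted p = 0.00366, and -0.68 with adjusted p = 0.0757 with the covariate). Ndufaf8, a complex I assembly factor, fell by 0.45 ± 0.155.

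The 2 members called higher at 500 µM and 48 h were the flavoprotein of complex II and the beta subunit of complex V. Sdha had 11635, 12361, 13337, 13499 and 13697 at 500 µM, against 10575, 11239, 12066, 12217 and 12683 in vehicle (0.14 ± 0.054, adjusted p = 0.0443). Atp5f1b had 35011, 35075, 35228, 36969 and 39364 at 500 µM, against 31030, 32034, 32377, 33170 and 37138 in vehicle (0.13 ± 0.052, adjusted p = 0.038). The groups overlapped in both, and neither was called with the covariate. Of the citric acid cycle list, 6 of 15 were higher and 2 lower in this comparison, and of the 35 assembly factors outside the member set 5 were higher and 10 lower, against 24% of all genes higher and 18.6% lower.

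In vehicle wells, 31 members were higher at 48 h than at 24 h (36.5%, against 13.4% of all genes) and 0 were lower (against 19%), and 44 of 85 had an unadjusted p below 0.05. The median difference was 0.14, and -0.008 over all genes. In 18 members all 5 arrays of 48 h lay above all 5 of 24 h, as for 9.31% of all genes. The actin ratio was lower at 48 h in these wells, and the cholangiocyte marker sums were higher. With the ratio as a covariate 2 members were higher, Ndufa4l2 and Cox7a2l, against 2.34% of all genes. With arrays centred on their medians 1 was, against 284 of all genes. After quantile normalization 28 were higher and 2 lower, against 1257 and 1535. Without the first vehicle array of 24 h, 20 members were called in the scaling as deposited.

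Complex I held 17 of the 31. Ndufa8, which lies on the membrane arm facing the intermembrane space, had 18525, 18807, 18986, 19106 and 19175 at 48 h, against 13634, 15479, 16178, 16489 and 16599 at 24 h in vehicle, groups apart (0.28 ± 0.061, adjusted p = 0.00107). Uqcrq, a small subunit of complex III, had 33306, 33689, 34004, 35630 and 37950 at 48 h, against 28109, 28130, 29368, 30079 and 30643 at 24 h (0.25 ± 0.052, adjusted p = 0.000444). Outside complex I, called rises in subunits were those of Sdhd (0.19 ± 0.057), Uqcrq, Cox6a1 (0.17 ± 0.06), Atp5pd, Atp5pb and Atp5po, the last 3 between 0.16 and 0.17. Sdhaf4, a complex II assembly factor, rose by 0.30 ± 0.067.

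Set against 500 µM, 5000 µM gave at 24 h 5 members higher (against 16.8% of all genes) and 19 lower (against 14.3%), with a median of -0.06. The split moved with the scaling, to 1 higher and 12 lower with centred arrays and to 12 higher and 20 lower after quantile normalization. At 48 h 47 members were higher (against 19.4%) and 4 lower (against 28.2%), in groups whose actin ratios averaged 1.21 at 5000 µM and 1.86 at 500 µM. With centred arrays 12 were higher and 4 lower, against 760 and 2708 of all genes. After quantile normalization 40 were higher and 5 lower, against 1762 and 2231. With the ratio as a covariate 16 were higher (against 8.87% of all genes) and 2 lower (against 1025 genes). The 16 include Ndufb10 (0.62 ± 0.051, and 0.50 with the covariate), Ndufv3, Ndufa6, Ndufc2 and Sdhaf3. These comparisons share their arrays with those against vehicle.

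At 24 h, 5 of the 6 core subunits of complex I were lower at 5000 than at 500 µM, with and without the covariate, as were 3 of the 5 subunits of the catalytic head of complex V, against 14.3% of all genes lower. These groupings were made with the values known. Ndufs7 had 11106, 11207, 11347, 11473 and 12095 at 5000 µM, against 13690, 13927, 13941, 14688 and 14706 at 500 µM, groups apart (-0.31 ± 0.049, adjusted p = 8.74e-06). Cyc1 had 14623 to 16270 at 5000 µM, against 17262 to 19173 at 500 µM (-0.27 ± 0.048, adjusted p = 6.24e-05). Sdhb had 19343 to 21712 at 5000 µM, against 23698 to 25363 at 500 µM (-0.28 ± 0.048, adjusted p = 2.23e-05).

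The effect of 5000 µM differed between 48 and 24 h in 5 members, 3 higher (against 7.74% of all genes) and 2 lower (against 8.66%). With centred arrays the counts were 0 and 1, against 441 and 174 of all genes. After quantile normalization they were 4 and 5, against 752 and 853. The effect was higher at 48 h for Sdha (0.29 ± 0.077), Ndufv1 (0.25 ± 0.072) and Atp5f1b (0.24 ± 0.073), which were called lower at 24 h and were not called at 48 h, where their changes were 0.098, 0.068 and -0.035. It was lower at 48 h for Ndufb8 (-1.06 ± 0.258) and Atp5if1 (-0.34 ± 0.089). In the fit with the actin ratio Sdha, Ndufv1 and Ndufb8 were still called (limma adjusted p of 0.0371, 0.0327 and 0.0499). Atp5f1b and Atp5if1 were not called in that fit (0.111 and 0.0617). The effect of 500 µM differed in 46 members, 2 higher (against 22.1%) and 44 lower (against 14.5%). With centred arrays 1 was higher and 4 were lower, against 1831 and 273 of all genes. After quantile normalization 3 were higher and 38 lower, against 1683 and 1355. With the actin ratio as a covariate 0 members and 3 genes in all were called.

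Within groups, the slope of log2 signal on the actin ratio was negative in 9 members and called (against 6.82% of all genes tested), and positive and called in none. After quantile normalization 3 were positive and 8 negative, against 803 and 576 of all genes. With centred arrays 1 was called, against 309 of all genes. With the serial sets of the titles as a block none was, against 526. Leaving out 1 array gave 3 to 13, the lowest without the first 5000 µM array of 24 h. The median slope was -0.073 per unit of the log2 ratio, against 0.042 over all genes. The 9 were Ndufb8, Ndufv2, Sdhd, Uqcrfs1, Uqcrc2 and the assembly factors Ndufaf1, Ndufaf3, Ndufaf4 and Ndufaf5. Ndufb8 had the steepest slope, -0.87 ± 0.253, and Sdhd had -0.33 ± 0.071. None of Ndufb10, Ndufv3, Ndufa4l2, Sdhaf1 and Sdhaf3 had a called slope. In that order their slopes were -0.19, -0.228, 0.167, -0.318 and -0.045. Those of Ndufb10, Ndufv3 and Sdhaf1 were near the threshold, with limma adjusted p of 0.0761, 0.0878 and 0.0828. With the ratio as a covariate, 5000 µM gave 7 higher (against 15.8%) and 15 lower (against 14.7%) members at 24 h, and 10 higher (against 16.4%) and 11 lower (against 19.1%) at 48 h. Within the arrays below the gap it gave 8 higher and 11 lower at 24 h, with 4 arrays against 2, and 12 higher and 11 lower at 48 h, with all 5 against 5.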

How the data were processed

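RNA of 30 hepatocyte cultures was measured on single-colour rat arrays of 31099 probe sets. The deposited values are linear intensity signals made with MAS5, per the submitters' processing notes, whose version is not given in the sources used here. They were already scaled by the authors, since the mean of each array after trimming 2% at each end was 1500.55 to 1500.66, and they were used as deposited and log2-transformed. Precision is limited by the 5 arrays of a group.

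Probe sets were named through the platform annotation and RefSeq. 20832 had 1 symbol, 436 had several and were named for none, and 9780 had no listed gene. A gene was read from its brightest probe set, and the brightest 60% of 14217 genes (8531, signals of 469 and above) were tested with limma 3.58.1 in R 4.3.3, with an intensity trend, 6 group means and Benjamini-Hochberg adjustment. The slope on the actin ratio came from the same model with the ratio added. Tested on simulated data for 5000 µM at 24 h over 8531 genes, 79 of 100 changes of 0.5 and 96 of 100 changes of 1 on the log2 scale were recovered, with 6 false calls.

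Members and lists were chosen with earlier results of these data known. Members were named as fixed core subunits and tissue isoforms, the 2 called members with the largest rise and fall in each complex and comparison, and the 3 largest called differences between times in each direction. Members called at both times at 5000 µM and the core or catalytic subunits were described as further sets after their values were seen. Alternatives were array scaling, the filter, the probe set rule, the groups in the fit, the actin ratio, title serial numbers and leaving out each array.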

Additional observations from a re-analysis of the deposited data

Results flagged for a closer look

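Among 306 groups of 5 arrays (42 named members, the complexes and the actin ratio), 20 (6.54%) held an array whose distance to the nearest other one was over 0.71 of the group's range, a rate that chance gives in about 1 in 20 groups.

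The third array of 500 µM at 48 h stood apart most often. It was low for Atp5mg at 28742, with the others at 34829 to 36824, for Ndufa8 at 13068 (others 15901 to 16221), and for Sdhb at 20686 (others 22571 to 22867). It was also low for Sdhd at 20548 (others 23477 to 24503), for Cox5a at 699 (others 2155 to 2549) and for the mean log2 signal of complex II at 14.2 (others 14.32 to 14.35). For Ndufv3 it was high at 6522 (others 5746 to 5793). In the same group, the second array had 29386 for Atp5po (others 24067 to 24703) and the first had 12035 for Ndufb10 (others 12436 to 12590).

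The first vehicle array of 24 h was low for Uqcrfs1 at 22502 (others 28399 to 30530), Uqcrc2 at 20254 (others 22500 to 23322), Sdhb at 21436 (others 24280 to 25248) and Ndufaf4 at 9845 (others 11861 to 12468). The third vehicle array of 24 h had 50617 for Cox4i1 (others 41939 to 43385). In vehicle at 48 h the fourth array had 33543 for Atp5pd (others 36590 to 37894) and 14.3 for the mean log2 signal of complex II (others 14.38 to 14.41), and the second had 23930 for Uqcrc2 (others 24836 to 24934). At 5000 µM and 24 h the fifth array had 26057 for Atp5f1a (others 24490 to 24898), the third had 14.24 for the mean log2 signal of complex II (others near 14.21), and the first had an actin log2 ratio of 1.76 (others 1.21 to 1.31).

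The effect of a dose differed between 48 and 24 h in 5 members at 5000 µM and in 46 at 500 µM. Listed are up to 3 of the largest called differences of the 2 effects in the limma fit in each direction, 10 in all. For 5000 µM the effect was higher at 48 h for Sdha (0.293), Ndufv1 (0.253) and Atp5f1b (0.24), and lower for Ndufb8 (-1.062) and Atp5if1 (-0.344). For 500 µM it was higher at 48 h for Sdha (0.264) and Atp5f1b (0.192), and lower for Ndufb8 (-1.006), Ndufaf8 (-0.711) and Ndufa4l2 (-0.594). With the actin ratio as a covariate 0 members were called for 500 µM, and Atp5f1b and Atp5if1 were not called for 5000 µM.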

How the results depend on the processing

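With arrays centred on their medians, fewer members were called than as reported: 14 for 5000 µM at 24 h, 5 for 500 µM at 48 h, 8 for 5000 µM at 48 h, 13 and 16 for 5000 against 500 µM at 24 and 48 h, 1 for 48 against 24 h in vehicle, 5 and 1 for the differences between times at 500 and 5000 µM, and 1 for the slope. With the actin ratio as a covariate 2 were called for 500 µM at 48 h, 18 for 5000 against 500 µM at 48 h, 2 for vehicle over time and 0 for the difference between times at 500 µM, and with the side of the gap as a block 3, 24, 11 and 7. Quantile normalization gave 44 for 500 µM at 48 h, 45 for 5000 against 500 µM at 48 h and 30 for vehicle over time. For the differences between times it gave 41 at 500 µM and 9 at 5000 µM. Serial sets as a block gave 0 slopes, and the subunits alone gave 11 for 5000 µM at 48 h and 5 slopes. The causes were not tested, except that the subunits are fewer genes.

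Leaving out 1 array gave 0 to 1 calls for 500 µM at 24 h (1 without its second array), 22 to 28 for 5000 µM at 24 h, 43 to 52 for 500 µM and 12 to 17 for 5000 µM at 48 h (12 without the third array of that group). It gave 21 to 26 and 45 to 53 for 5000 against 500 µM at 24 and 48 h, 20 to 39 for vehicle over time (20 without the first vehicle array of 24 h), and 42 to 50 and 5 to 8 for the differences between times at 500 and 5000 µM (8 without that same array). The slope gave 3 to 13, with 3 without the first array of 5000 µM at 24 h.

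With the mean of all probe sets Ndufa9 turned to 0.062 for 5000 µM at 24 h, to 0.234 for 500 µM at 48 h and to -0.005 for vehicle over time, and with the covariate Sdhd turned to 0.003 for 500 µM at 48 h. Of 2584 values of named members under alternatives, 2274 stayed on their side of the threshold, 289 lost the call, 17 gained it and 4 turned. Changes of sign in values that were not called were not counted as turns. With centred arrays 0 were counted, although the median member change for 5000 µM at 24 h moved from 0.008 to -0.058. The titles carry serial numbers and no replicate numbers. With sets of these numbers as a block 136 of 138 named values kept direction and side, 1 gained the call and 1 lost it.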

Other observations

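Uqcrc2 was read from its brightest probe set. Its second probe set changed by -1.005 ± 0.165 at 500 µM and 48 h, against -0.21 for the brightest one. Between 48 and 24 h in vehicle the second probe set differed by 0.72 and the brightest by 0.14. The second probe set had a called slope on the actin ratio of -1.102 ± 0.176 (limma adjusted p = 0.000127), and the ratio differed between these groups. Its part in the differences was not tested.

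Cox6a2, the muscle isoform, was too dim to be tested. It read 27, 32, 77, 142 and 147 at 5000 µM and 24 h, against 100, 203, 206, 247 and 258 in vehicle, and the groups overlapped. At 48 h it read 41, 44, 45, 81 and 89 at 5000 µM, against 212, 225, 227, 269 and 288 in vehicle, and the groups did not overlap. Among all genes tested 13.6% lay wholly below vehicle in that comparison. Signals below the floor give no level that can be compared, so the separation is not read as a change.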
